A study of Homo sapiens with 6 samples.

Results

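FHIT, WWOX, MACROD2, LRP1B, CSMD1, CSMD3, IMMP2L, RBFOX1 and PTPRN2 are very long human genes that lie in, or are commonly listed with, chromosomal fragile sites. These 9 genes were chosen by name, out of 20033 protein-coding genes of the GENCODE annotation on chromosomes 1 to 22, X and Y. No peak value entered the rule for this choice, but earlier results of these data were known when it was made. A ChIP-seq peak was assigned to a gene when it touched the gene body by at least 1 nt, and 117 of 22546 peaks did so. Their length could be checked in the annotation, where they ranked from 1 (RBFOX1, 2.47 Mb) to 99 (IMMP2L, 0.900 Mb) among the coding genes. Breakage was not measured in these data, so the fragile-site label is background. The label, that of PTPRN2 included, was not checked against a fragile-site annotation.

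The cells were SH-SY5Y, a human neuroblastoma line, stably expressing heterologous 82-kDa ChAT, a nuclear form of the enzyme that makes acetylcholine. All cells were differentiated with retinoic acid for 3 days and then received either oligomeric Aβ1–42, the amyloid peptide of Alzheimer disease, at 100 nM or its vehicle for 4 h. Chromatin was immunoprecipitated with an antibody to the carboxyl terminus of ChAT or an antibody to SATB1, a chromatin organiser that binds A/T-rich DNA. Each combination of protein and treatment was 1 library, for which 3 culture plates were used, and 1 input library per treatment served both proteins. The transfected line is a single cell model that expresses the ChAT protein from a transgene, and no line without it is part of the 4 peak lists.

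The values are peaks in hg38 with a score that MACS derived from its p-value, equal to minus 10 times its log10. The read depth of each library is unknown here, and depth and peak number cannot be told apart. With 1 library per group no test between groups was possible, and no result has a replicate check. The 95% intervals below are exact Poisson intervals for counts and exact binomial (Clopper-Pearson) intervals for shares. They cover counting error over peaks of 1 library only. The lists held 7460 peaks for ChAT in vehicle, 6345 for ChAT after Aβ1–42, 2884 for SATB1 in vehicle and 5857 for SATB1 after Aβ1–42.

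Common fragile sites are stretches of normal chromosomes that show gaps and breaks when replication is slowed, and many coincide with very long genes that replicate late in S phase. Replication origins are sparse in such genes, and transcription of the gene can still be under way when the fork arrives. Deletions within these genes are frequent in tumours, and several of the genes are expressed mainly in neurons. SATB1 is known for anchoring loops of chromatin at A/T-rich sequence that readily unpairs.

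The genes code for proteins of unlike function. FHIT (chr3:59747277-61251459, minus strand) is a hydrolase of diadenosine polyphosphates and WWOX (chr16:78099400-79212667, plus strand) is an oxidoreductase with WW domains, and both are known as tumour suppressors. MACROD2 (chr20:13995369-16053197, plus strand) removes mono-ADP-ribose from proteins, and IMMP2L (chr7:110662644-111562517, minus strand) is a subunit of the peptidase of the inner mitochondrial membrane. LRP1B (chr2:140231423-142131016, minus strand) is a large endocytic receptor of the LDL receptor family. RBFOX1 (chr16:5239802-7713340, plus strand) is a neuronal regulator of alternative splicing. PTPRN2 (chr7:157539056-158587823, minus strand) is a receptor of the tyrosine phosphatase family found on dense-core vesicles, and CSMD1 and CSMD3, on chromosome 8, are transmembrane proteins with CUB and sushi domains.

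In the 9 genes together, the number of peaks was close to what their length gave. The expected number is the list's peaks times the gene's share of the sequenced genome. ChAT had 43 peaks in vehicle, 1.19 times the expected number (95% interval 0.859 to 1.60), and 30 after Aβ1–42, 0.973 times. SATB1 had 19 peaks in vehicle, 1.36 times the expected number, and 25 after Aβ1–42, 0.879 times. Over the 4 lists 117 peaks stood against 109.5 expected, a ratio of 1.07 (0.883 to 1.28). PTPRN2 held 45 of them. Without it, the other 8 genes had 72 peaks against 101 expected, a ratio of 0.710 (0.555 to 0.894). The 314 other coding genes of at least 500 kb had a ratio of 0.788 (0.749 to 0.828) over the same lists, and the interval of the 8 genes includes that value.

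**Figure D1:**
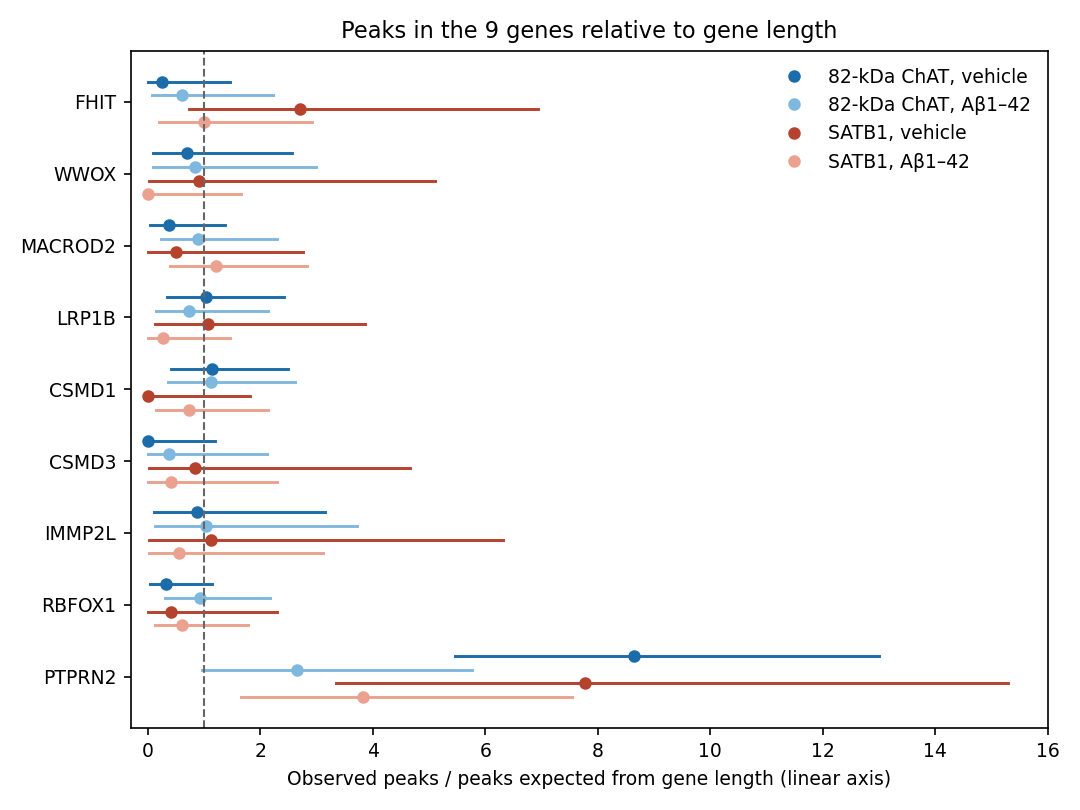
Observed peaks divided by the peaks expected from gene length (linear horizontal axis, no unit) for each of the 9 genes in each of the 4 lists; horizontal bars are exact 95% Poisson intervals and the dashed line marks 1. PTPRN2 lies above 1 in every list, from 2.65 to 8.64, and the intervals of the other 8 genes include 1 in every list.

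Nearly all members had some peak. ChAT had at least 1 peak in 8 of 9 members in vehicle, against 72.8% of all 323 genes of at least 500 kb, and in 9 of 9 after Aβ1–42, against 75.9%. SATB1 had at least 1 peak in 8 of 9 members in vehicle, against 47.7% of the long genes, and in 8 of 9 after Aβ1–42, against 66.3%. The member without a peak was CSMD3 for ChAT in vehicle, CSMD1 for SATB1 in vehicle and WWOX for SATB1 after Aβ1–42. A peak in all 4 lists was found in 6 of 9 members, against 22.6% of the long genes. These shares were not compared at matched gene length.

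A ratio of 2 or more was rare in the members, as in the long genes. In ChAT it was reached by 1 of 9 members in vehicle (7.43% of the long genes) and by 1 of 9 after Aβ1–42 (9.29%), PTPRN2 both times. In SATB1 it was reached by FHIT and PTPRN2, 2 of 9 members, in vehicle (10.5% of the long genes) and by PTPRN2 alone, 1 of 9, after Aβ1–42 (6.19%). FHIT had 4 SATB1 peaks in vehicle against 1.48 expected, a ratio of 2.71 (0.738 to 6.94).

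The enzymes FHIT, WWOX, MACROD2 and IMMP2L had few peaks each. FHIT had 1 ChAT peak in vehicle and 2 after Aβ1–42, and 4 SATB1 peaks in vehicle and 3 after Aβ1–42. The FHIT peak of highest score, 107, was a SATB1 peak after Aβ1–42 at chr3:60066600-60066681 in intron 5, an 82-nt stretch of 84.1% A+T. WWOX had 2 ChAT peaks in each treatment and 1 SATB1 peak, in vehicle. MACROD2 had 2 ChAT peaks in vehicle and 4 after Aβ1–42, and 1 SATB1 peak in vehicle and 5 after Aβ1–42. IMMP2L, the shortest of the 9, had 2 ChAT peaks and 1 SATB1 peak in each treatment. Apart from FHIT in SATB1 vehicle, these genes differed among each other by a few peaks per list, and each count is small.

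FHIT, WWOX, IMMP2L and LRP1B each held 1 place where a ChAT peak and a SATB1 peak of the vehicle cells overlapped, and no other place in the genes apart from PTPRN2 was shared by 2 lists. The FHIT and WWOX sequences are printed as examples of such places. They are read from the hg38 reference, plus strand, over both peaks, with the bases that lie in both peaks in capitals. Neither is a tandem repeat by the measure given below. The FHIT place is chr3:60453572-60453740 in intron 5 and the WWOX place chr16:78440234-78440369 in intron 8.
FHIT: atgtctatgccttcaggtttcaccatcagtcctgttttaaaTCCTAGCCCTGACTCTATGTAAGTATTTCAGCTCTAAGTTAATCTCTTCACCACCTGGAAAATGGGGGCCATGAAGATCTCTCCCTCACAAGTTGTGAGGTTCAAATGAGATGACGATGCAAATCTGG
WWOX: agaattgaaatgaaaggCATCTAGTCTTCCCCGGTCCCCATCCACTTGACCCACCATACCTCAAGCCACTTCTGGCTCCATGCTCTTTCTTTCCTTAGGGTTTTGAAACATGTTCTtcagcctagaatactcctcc

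The shared stretch was 128 nt in FHIT and 99 nt in WWOX. In WWOX the SATB1 peak scored 106 and the ChAT peak 65.1, and in FHIT the ChAT peak scored 70.4 and the SATB1 peak 54.5. Scores rank peaks within a list only.

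LRP1B had 5 ChAT peaks in vehicle and 3 after Aβ1–42, and 2 SATB1 peaks in vehicle and 1 after Aβ1–42. Its highest peak was a ChAT vehicle peak at chr2:140585931-140586015 in intron 43 with a score of 113. The sequence is printed as a single-copy peak that holds the SATB1 consensus pattern, in capitals, which is 3 to 6 A or T, then C, then 3 A or T, searched on both strands.
LRP1B: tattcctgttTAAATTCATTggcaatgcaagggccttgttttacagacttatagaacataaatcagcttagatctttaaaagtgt

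CSMD1 had 6 ChAT peaks in vehicle and 5 after Aβ1–42, and no SATB1 peak in vehicle against 3 after Aβ1–42. Of its 14 peaks, 4 lay in intron 51, an intron of 10.7 kb for which length gave 0.0819 peaks. All of those 4 peaks were in a tandem repeat, and they were not independent. Of the ChAT vehicle peaks there, 2 lay 0.006 kb apart, and another lay within 1 kb of the SATB1 peak after Aβ1–42. The intron was picked from 69 introns of the gene after seeing the counts. CSMD3 had the fewest peaks, 3 over the 4 lists against 9.32 expected, a ratio of 0.322 (0.0664 to 0.941). It had no ChAT peak in vehicle and 1 peak in each of the other lists. It was also the member with the highest A+T content, 66.3%. RBFOX1, the longest coding gene of the annotation, had 2 and 5 ChAT peaks and 1 and 3 SATB1 peaks in vehicle and after Aβ1–42. Its 11 peaks stood at 0.579 times the expected number.

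PTPRN2 differed from the other 8 genes in number of peaks. It had 23 ChAT peaks in vehicle against 2.66 expected, a ratio of 8.64 (5.47 to 13.0). After Aβ1–42 it had 6 against 2.27, a ratio of 2.65 (0.972 to 5.77). SATB1 had 8 peaks in vehicle against 1.03, a ratio of 7.77 (3.35 to 15.3), and 8 after Aβ1–42 against 2.09, a ratio of 3.83 (1.65 to 7.54). Over the 4 lists, 45 peaks stood against 8.05 expected, a ratio of 5.59 (4.08 to 7.48). This was the highest of the 323 genes of at least 500 kb, ahead of FGGY at 2.79 and RBFOX3 at 2.75. By list PTPRN2 ranked 1 and 10 of 323 in ChAT and 2 and 3 in SATB1, in vehicle and after Aβ1–42. Without multi-copy peaks, defined further on, in both gene and list, the ratios were 5.58 for ChAT and 4.22 for SATB1 in vehicle and 8.11 for SATB1 after Aβ1–42. With scores at or above the list median alone, the ratio after Aβ1–42 was 0.883 for ChAT (1 peak) and 1.89 for SATB1 (2 peaks).

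The surroundings of PTPRN2 also had more peaks than their length gave, apart from SATB1 after Aβ1–42 on the side away from the chromosome end. Chromosome 7 as a whole had 1.38 to 1.53 times the peaks its length gave in the 4 lists, and SH-SY5Y is known to carry extra chromosome 7 material. Copy number was not measured here and its part in the result was not tested. Measured against its own chromosome, PTPRN2 had ratios of 6.04 and 1.73 in ChAT and 5.61 and 2.53 in SATB1, in vehicle and after Aβ1–42. PTPRN2 ends 0.758 Mb from the end of the long arm. The 748 kb between the gene and the chromosome end held 7 and 4 ChAT peaks and 1 and 4 SATB1 peaks, at 3.68, 2.48, 1.36 and 2.68 times the expected number. The 1 Mb on the other side held 4, 4, 2 and 2 peaks in the same order, at 1.58, 1.85, 2.04 and 1.0 times. These counts are small. A 1 Mb flank of FHIT had a ratio of 3.06 for SATB1 in vehicle on 3 peaks. A flank of MACROD2 had 2.78 for ChAT after Aβ1–42 on 6 peaks and 0 for ChAT in vehicle. IMMP2L, on the same chromosome, had 2, 2, 1 and 1 peaks.

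**Figure D2:**
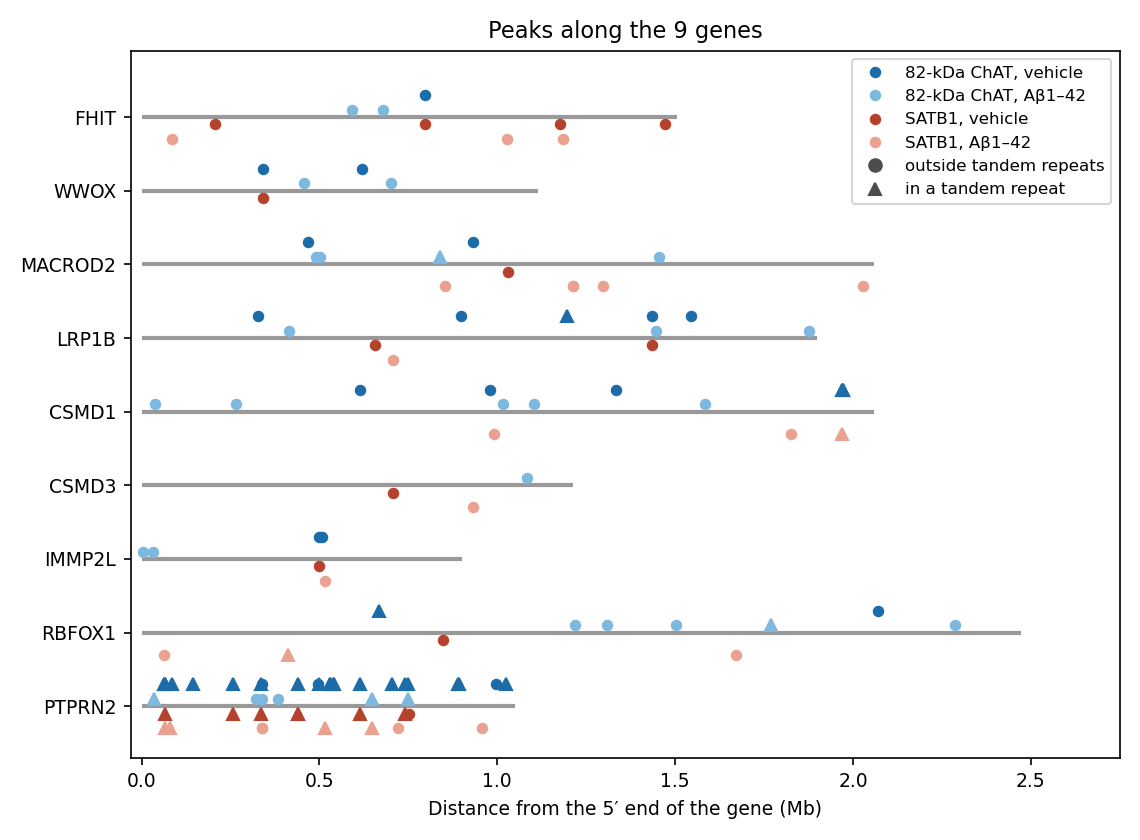
Position of each peak along the 9 genes, as distance from the 5′ end of the gene in Mb; grey lines span the gene, each symbol is 1 peak, colours are the 4 lists, and triangles are peaks in a tandem repeat. Peaks are few and scattered in 8 genes, and the 45 peaks of PTPRN2 are spread over its length.

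PTPRN2 was rich in tandem repeats, which are short units repeated head to tail. A 150-nt tile was called tandem when at least 60.0% of its bases equalled the base a fixed shift further on, for the best shift up to 75 nt, and a peak was called tandem when the 150 nt around its midpoint met the same rule. This measure was chosen after seeing the data. Tandem tiles made up 13.3% of PTPRN2, between 0.279% (FHIT) and 1.32% (RBFOX1) of the other 8 genes, and 0.852% of the genome. PTPRN2 ranked 1 of 323 long genes in this share, whose median was 0.402%. Between the gene and the chromosome end tandem tiles made up 5.47% of the sequence, and in the 1 Mb on the other side 1.62%. PTPRN2 was also the member of lowest A+T content, 48.6%, against 57.4% to 66.3% in the others.

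Most PTPRN2 peaks lay in these repeats. In vehicle 20 of 23 ChAT peaks (87.0%) and 7 of 8 SATB1 peaks (87.5%) were tandem, and after Aβ1–42 3 of 6 and 4 of 8. In the other 8 genes the shares were 5 of 20 and 2 of 24 (8.33%) for ChAT, and 0 of 11 and 2 of 17 (11.8%) for SATB1. The 0 of 11 allows a share of up to 28.5%. Across the whole lists the shares were 35.5% and 12.5% for ChAT and 17.6% and 5.84% for SATB1. The 34 tandem peaks of PTPRN2 had repeat shifts of 6 to 74 nt with a median of 39.5 nt, and 33 of them were at least 7 nt, the range of minisatellites. The 9 tandem peaks of the other genes had shifts of 2 to 39 nt with a median of 10.0 nt.

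The repeat units can be read directly. The ChAT peak of highest score among all members lay at chr7:158146913-158149264 in intron 6 of PTPRN2. It was 2352 nt long, scored 683, above 99.5% of its list, and overlapped 2 SATB1 vehicle peaks. Its first 152 nt are 4 copies of a 38-nt unit, printed with every second unit in capitals. The other places are printed over all their peaks with the bases in peaks of both ChAT and SATB1 of the vehicle cells in capitals. They are chr7:157847419-157847656 in intron 12, chr7:157972735-157972908 in intron 11 and chr7:158251472-158251642 in intron 3, all hg38, plus strand.
PTPRN2 intron 6: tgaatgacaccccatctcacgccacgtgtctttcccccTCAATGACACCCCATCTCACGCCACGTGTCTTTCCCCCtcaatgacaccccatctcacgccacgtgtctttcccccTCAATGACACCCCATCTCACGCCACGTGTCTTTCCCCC
PTPRN2 intron 12: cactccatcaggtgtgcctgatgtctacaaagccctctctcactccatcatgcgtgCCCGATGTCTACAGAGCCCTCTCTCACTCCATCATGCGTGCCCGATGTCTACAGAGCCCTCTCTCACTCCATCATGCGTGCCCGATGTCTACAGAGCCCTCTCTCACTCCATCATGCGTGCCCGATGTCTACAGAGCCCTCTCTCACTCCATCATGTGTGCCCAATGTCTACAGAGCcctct
PTPRN2 intron 11: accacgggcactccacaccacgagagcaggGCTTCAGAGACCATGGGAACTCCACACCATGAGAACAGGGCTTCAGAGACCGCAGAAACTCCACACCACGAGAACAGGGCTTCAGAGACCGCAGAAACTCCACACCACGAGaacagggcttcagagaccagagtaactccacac
PTPRN2 intron 3: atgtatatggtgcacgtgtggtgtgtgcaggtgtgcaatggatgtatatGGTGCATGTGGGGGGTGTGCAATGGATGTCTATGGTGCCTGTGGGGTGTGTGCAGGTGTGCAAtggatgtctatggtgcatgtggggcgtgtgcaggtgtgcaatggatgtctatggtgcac

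PTPRN2 held 271 separate tandem arrays covering 139.7 kb, with a median length of 300 nt, and 23 of them were touched by a peak. Among the 253 pairs of those 23 arrays, 2 pairs matched each other in a blastn search, and 20 arrays matched none of the others. The touched arrays had a median length of 1050.0 nt and a median identity at the best shift of 0.961, and the 248 untouched arrays 300 nt and 0.837. ChAT vehicle peaks touched 10 of the 36 arrays of at least 1 kb (27.8%, 14.2 to 45.2) and 7 of the 235 shorter ones (2.98%, 1.21 to 6.04). The 36 longer arrays covered 61.2 kb and the 235 shorter ones 78.5 kb, and 19 and 17 peaks of the 4 lists touched them. The part of array length and of identity in these counts was not tested. ChAT after Aβ1–42 touched 1 of 36 and 3 of 235, SATB1 in vehicle 3 of 36 and 4 of 235, and SATB1 after Aβ1–42 2 of 36 and 2 of 235. Peaks of 2 or more lists touched 8 of the arrays.

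**Figure D3:**
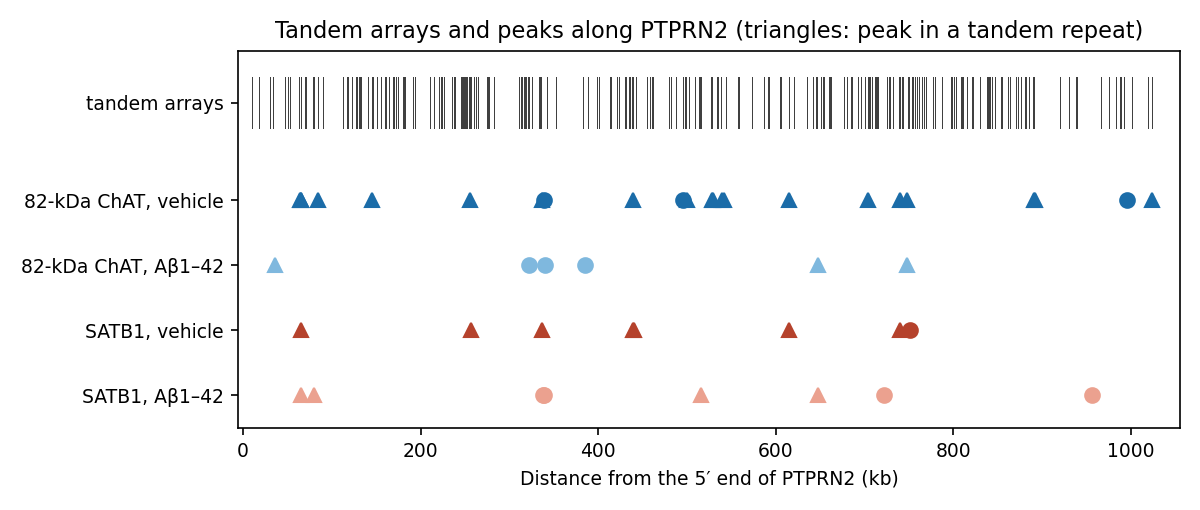
Tandem arrays of PTPRN2 (upper track, short arrays drawn at a minimum width) and the peaks of the 4 lists in separate tracks, against distance from the 5′ end of the gene in kb; triangles are peaks in a tandem repeat and circles are other peaks. Of the 45 peaks, 34 are triangles, and 20 of these are ChAT peaks in vehicle.

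The peaks of PTPRN2 were then set against the length of its tandem and other sequence, with the density of each list in the tandem and the other tiles of the genome. ChAT in vehicle had 20 peaks in the 139.7 kb of tandem sequence, where this density gave 14.8, a ratio of 1.35 (0.827 to 2.09). SATB1 in vehicle had 7 against 2.84, a ratio of 2.47 (0.993 to 5.09). After Aβ1–42 the ratios were 0.680 for ChAT and 2.10 for SATB1. Over the 4 lists, 34 peaks stood against 23.9, a ratio of 1.42 (0.984 to 1.99). In the other 909 kb of the gene, 11 peaks stood against 5.70, a ratio of 1.93 (0.963 to 3.45). Both ratios were above 1 with intervals that include 1, against 5.59 for the gene by its length alone. The 8 other genes had 63 peaks outside tandem repeats against 82.3, a ratio of 0.765 (0.588 to 0.979).

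Across the 323 long genes, most of which held few tandem tiles (median 0.402%), the rank correlation of tandem share and peak ratio was weak. Spearman's rho over the 323 genes was 0.167 and 0.179 for ChAT and 0.199 and 0.190 for SATB1, in vehicle and after Aβ1–42. These are descriptions of genes that share the same libraries. DLGAP2, the gene with the next highest tandem share, 11.6%, had 5 peaks over the 4 lists, 0.671 times the expected number. ADARB2, with 7.77%, had a ratio of 2.56, CDH4, with 5.53%, a ratio of 1.89, and SORCS2, with 5.23%, a ratio of 2.60. The genes ranked 3 to 10 in tandem share had ratios from 1.33 (SHANK2) to 2.75 (RBFOX3). PTPRN2 was the highest in both measures, and from rank 1 to 10 in tandem share only DLGAP2 had a ratio below 1. The part of tandem content in these ratios was not tested.

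**Figure D4:**
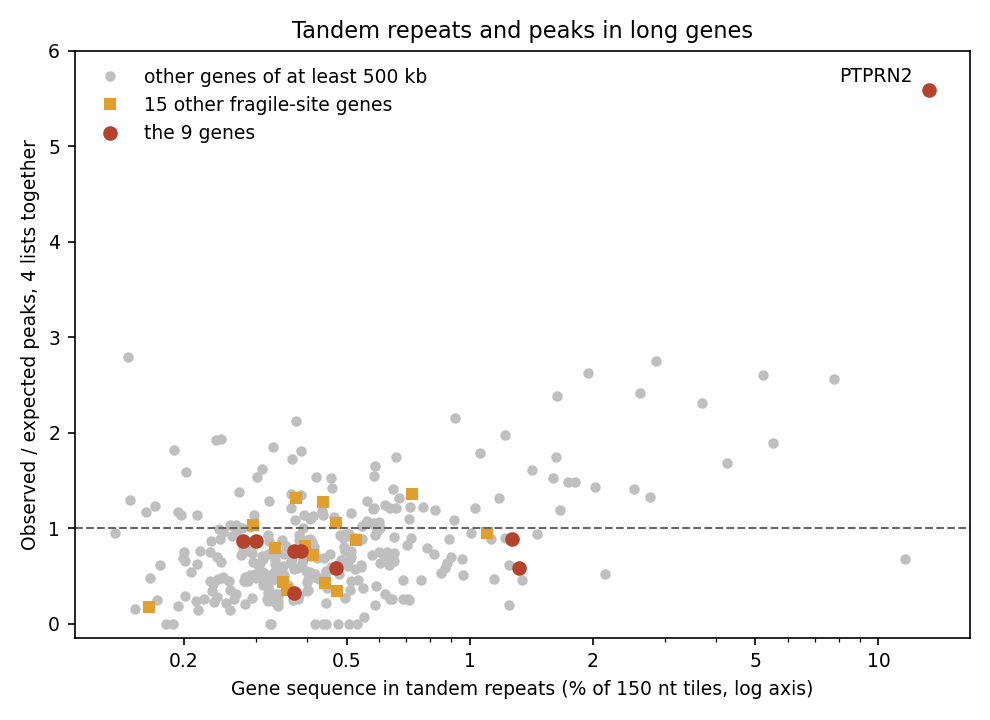
Ratio of observed to expected peaks over the 4 lists together (vertical axis) against the share of tandem tiles in percent (horizontal log axis) for the 323 genes of at least 500 kb; red circles are the 9 genes, orange squares 15 other genes commonly listed with fragile sites, grey circles the rest, and the dashed line marks 1. PTPRN2 stands apart at 13.3% and 5.59, and the grey circle at 11.6% and 0.671 is DLGAP2.

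Repeats of another kind marked the SATB1 peaks after Aβ1–42. In the 8 genes apart from PTPRN2, 12 of 17 of these peaks (70.6%, 44.0 to 89.7) matched an Alu element, the most common short interspersed repeat of the human genome, as did 75.2% of the whole list. In PTPRN2 1 of 8 (12.5%) did, and without Alu peaks in both gene and list its ratio in this list was 13.5. For the other lists the counts in the 8 genes were 0 of 20 and 2 of 24 for ChAT in vehicle and after Aβ1–42, and 1 of 11 for SATB1 in vehicle. All 5 SATB1 peaks of MACROD2 after Aβ1–42 matched Alu. The Alu copy used as the query overlaps a SATB1 peak after Aβ1–42 in APP, so it was picked from this same list.

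The Alu content of the genes is given beside their SATB1 counts after Aβ1–42. The counts are of all SATB1 peaks and not adjusted for gene length, and the part of Alu content in them was not tested. Alu tiles made up 13.5% of WWOX and 13.5% of RBFOX1, the highest of the members, and these genes had 0 and 3 SATB1 peaks after Aβ1–42. MACROD2 had 5 peaks with 7.23% Alu tiles. PTPRN2 had the lowest Alu share, 3.68%, and 8 peaks, of which 1 matched Alu. Its peak of highest score in this list, 136, above 99.7% of the list, was the one that matched Alu, at chr7:157631530-157631612 in intron 14. Reads from a sequence with several identical copies cannot be placed with certainty. Peaks were called multi-copy when more than 50% of their 51-nt words occurred more than once in the genome, and this held for 47.8% and 16.7% of PTPRN2 peaks for ChAT and 62.5% and 12.5% for SATB1, in vehicle and after Aβ1–42, and for 5.00%, 4.17%, 9.09% and 41.2% of the peaks of the other 8 genes. For 16 of the 18 multi-copy peaks of PTPRN2 the share of repeated words was the same within 1 percentage point when copies were counted only within 5 kb of the peak. The part of misplaced reads in the peak numbers was not tested.

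**Figure D5:**
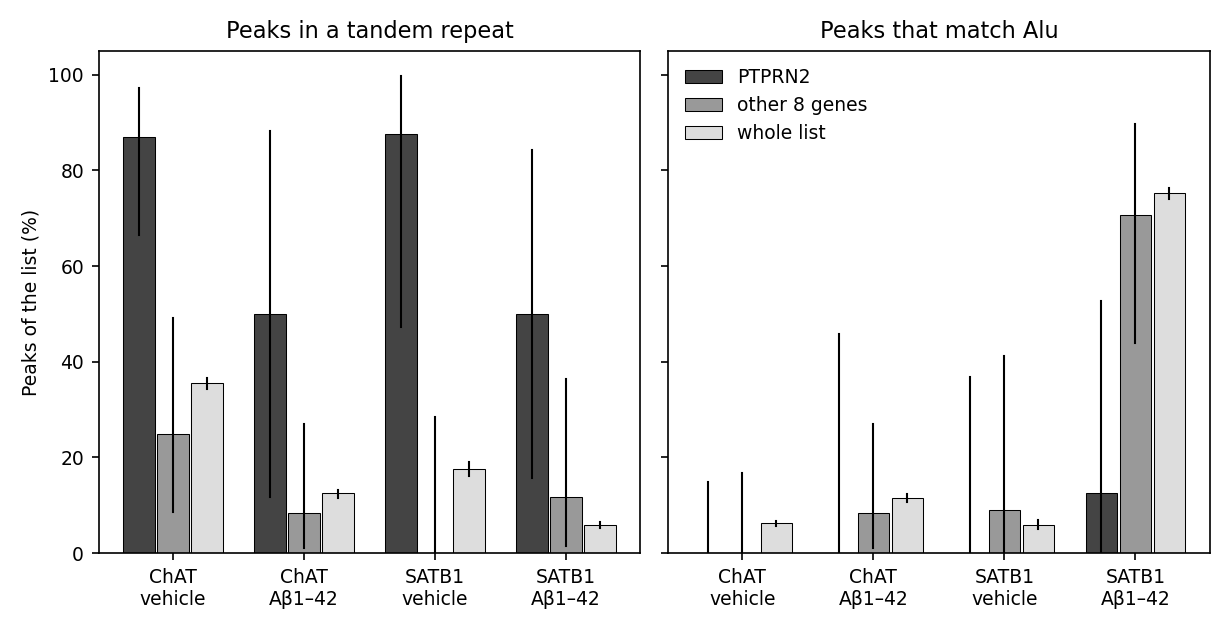
Percent of peaks in a tandem repeat (left) and percent of peaks that match Alu (right), for PTPRN2, the other 8 genes and the whole list, in each of the 4 lists; lines on the bars are exact 95% binomial intervals. Tandem repeats hold 87.0% and 87.5% of PTPRN2 peaks in vehicle, and Alu 70.6% of the SATB1 peaks after Aβ1–42 in the other 8 genes.

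No peak lay on an exon of a reference transcript. Of the 117 peaks, 114 lay in introns of the MANE Select transcript, the reference transcript of a gene, and 0 touched one of its exons. The remaining 3 lay in RBFOX1 upstream of the start of that transcript. A single peak touched an exon of another annotated transcript, a SATB1 peak after Aβ1–42 at chr3:61165735-61165884 in intron 2 of FHIT. The median distance to the nearest annotated exon was 20925 nt. No peak lay within 2 kb of a MANE transcription start, and the closest was a ChAT peak after Aβ1–42 in IMMP2L at chr7:111557126-111557200, 5329 nt away. Exons and the 2 kb around starts are a small part of these very long genes. The number of peaks that length gives there was not computed, so their absence cannot be read as avoidance.

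The longest introns held about as many peaks as their length gave. In all 9 genes together, the longest intron of each held 33 peaks against 29.8 expected from its share of the gene, a ratio of 1.11. In WWOX all 5 peaks lay in intron 8, which makes up 70.0% of the gene and holds the fragile region of this locus, where length gave 3.50. In FHIT 5 of 10 peaks lay in intron 5, also part of the fragile region, against 3.48 expected. Intron 5 of MACROD2 held 6 of 12 peaks against 3.18, and intron 3 of IMMP2L held 4 of 6 against 3.49. In CSMD1 the longest intron, intron 3, held 1 of 14 peaks against 2.64. In PTPRN2 the peaks fell in 11 of 22 introns, with 9 in intron 12, where length gave 9.26, 9 in intron 11, 8 in intron 1 and 7 in intron 3.

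Peaks in PTPRN2 stood closer together than in the other 8 genes pooled, and they were also more numerous for its length. The part of their higher number in the gaps was not tested. The gaps were not compared with the peak density of the gene itself. The median gap between neighbouring ChAT peaks in vehicle was 28.1 kb in PTPRN2 over 22 gaps, of which 9 were under 10 kb and 3 under 1 kb. In the other 8 genes it was 297 kb, and the genome had 394 kb per peak. For ChAT after Aβ1–42 the medians were 100.5 kb in PTPRN2 and 256 kb in the others. For SATB1 they were 102 and 484 kb in vehicle, and 130.4 and 354 kb after Aβ1–42. Single genes with few peaks had shorter gaps, with 1 gap of 8.74 kb for ChAT in vehicle and 1 of 27.0 kb after Aβ1–42 in IMMP2L, and 1 of 88.9 kb after Aβ1–42 in FHIT.

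ChAT and SATB1 shared peaks in the vehicle cells and not after Aβ1–42. In vehicle 10 of 43 ChAT peaks in the 9 genes (23.3%, 11.8 to 38.6) overlapped a SATB1 peak, and 10 of 19 SATB1 peaks (52.6%, 28.9 to 75.6) overlapped a ChAT peak. In the whole lists the shares were 9.12% and 23.1%. PTPRN2 gave 6 of 23 and 6 of 8, and the other 8 genes 4 of 20 and 4 of 11. After Aβ1–42 the overlap was 0 of 30 ChAT peaks, which allows up to 11.6%, and 0 of 25 SATB1 peaks, which allows up to 13.7%. The whole-list shares of 3.51% and 3.65% lie within those limits, so fewer shared peaks than elsewhere were not detectable at this number of peaks.

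Between treatments the positions hardly overlapped, in the members as in the whole lists. A single ChAT peak of the vehicle cells overlapped one found after Aβ1–42, at chr7:157839804-157840121 in intron 12 of PTPRN2, 1 of 43 and 1 of 30 peaks, against 5.19% and 6.00% in the whole lists. For SATB1 the count was 1 of 19 and 1 of 25, against 1.63% and 0.751% in the whole lists, at chr7:158521691-158522321 in intron 1 of PTPRN2. That place held 2 ChAT peaks and 1 SATB1 peak of the vehicle cells and 1 SATB1 peak after Aβ1–42, the widest sharing among the members. In the other 8 genes no position was found in both treatments for either protein. The 0 of 20 and 0 of 24 ChAT peaks allow up to 16.8% and 14.2%. The 0 of 11 and 0 of 17 SATB1 peaks allow up to 28.5% and 19.5%. The whole-list shares lie within those limits.

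Counts by treatment are given apart for PTPRN2 and the other genes, and the difference between them was not tested. ChAT peaks in PTPRN2 went from 23 in vehicle to 6 after Aβ1–42, a ratio of 0.261 (exact conditional binomial interval 0.0869 to 0.659). In its tandem repeats they went from 20 to 3, a ratio of 0.150 (0.0285 to 0.506), and in its other sequence from 3 to 3. The whole ChAT lists moved in the same direction in tandem repeats, from 2645 to 790 peaks, a ratio of 0.299 (0.276 to 0.324), while outside them the ratio was 1.15. In the other 8 genes ChAT peaks went from 20 to 24, a ratio of 1.20 (0.635 to 2.29). SATB1 peaks in PTPRN2 were 8 and 8, and in the other 8 genes 11 and 17, a ratio of 1.55 (0.683 to 3.65), against 2.03 for the whole lists. With 1 library per group, treatment and library cannot be told apart.

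By gene, ChAT peaks were more numerous after Aβ1–42 in 4 of 9 members (FHIT, MACROD2, CSMD3 and RBFOX1), against 38.7% of the long genes, fewer in 3 (LRP1B, CSMD1 and PTPRN2), and equal in WWOX and IMMP2L. SATB1 peaks were more numerous after Aβ1–42 in 3 of 9 (MACROD2, CSMD1 and RBFOX1), against 44.0% of the long genes, fewer in 3 (FHIT, WWOX and LRP1B), and equal in CSMD3, IMMP2L and PTPRN2. Apart from PTPRN2 the counts moved by 1 to 4 peaks, each on few peaks.

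With 1 exception, the mean A+T content of the peaks was below that of the genes around them. In the 8 genes apart from PTPRN2, the mean A+T content of the peaks minus that of the gene was -2.20 percentage points for ChAT in vehicle, 1.18, the exception, for ChAT after Aβ1–42, -5.89 for SATB1 in vehicle and -9.97 for SATB1 after Aβ1–42. Of the SATB1 peaks, 10 of 11 in vehicle and 14 of 17 after Aβ1–42 lay below the A+T content of their gene. Of these 17 peaks, 12 matched Alu. The others held 84.1% A+T in FHIT and 70.6% in CSMD3, above the 61.1% and 66.3% of those genes. In LRP1B, CSMD1 and RBFOX1 they held 59.0%, 35.1% and 39.1%, below their genes, the last 2 in tandem repeats. The part of repeats in these differences was not tested. In PTPRN2 the differences were -3.77 and -6.29 for ChAT and -4.75 and -2.23 for SATB1.

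In the 8 genes the SATB1 consensus pattern was less frequent in peaks than in tiles of the same length over the same genes in each list, by counts that were not tested. It was found in 65.0% of ChAT peaks in vehicle against 84.7% of tiles, 70.8% against 73.5% after Aβ1–42, and in SATB1 peaks in 72.7% against 83.7% in vehicle and 58.8% against 82.6% after Aβ1–42. Of these last peaks, 12 of 17 matched Alu. In PTPRN2 it was found in 13.0% of ChAT peaks in vehicle against 64.1% of tiles, and in 12.5% of SATB1 peaks in vehicle against 61.2%. After Aβ1–42 it held for 3 of 6 ChAT peaks there against 49.3% of tiles and for 37.5% of SATB1 peaks against 54.8%. The pattern TCCAT or TCCCAT was also searched on both strands. In the 8 genes it was found in 63.6% of SATB1 peaks in vehicle, 7 of 11, against 33.6% of tiles. After Aβ1–42 it was found in 0 of 17 against 33.4%, and 12 of these 17 matched Alu. For ChAT the shares were 35.0% against 35.3% in vehicle and 20.8% against 26.2% after Aβ1–42. In PTPRN2 they were 52.2% against 53.9% and 33.3% against 35.8% for ChAT, in the same order. For SATB1 there they were 62.5% against 49.7% and 12.5% against 41.5%. These differences were not tested. A match is a description of letters in a window and not of a binding site.

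The scores of the members' peaks lay near those of their lists. Of the ChAT peaks 17 of 43 in vehicle and 12 of 30 after Aβ1–42 scored at or above the list median, and of the SATB1 peaks 13 of 19 and 9 of 25. The medians in the members were 63.1, 62.1, 72.6 and 64.1, against 66.6, 63.6, 65.8 and 66.4 in the lists, in the order of ChAT in vehicle and after Aβ1–42 and SATB1 in vehicle and after Aβ1–42.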

How the data were processed

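Chromatin from SH-SY5Y cells was sequenced by the authors, whose methods name both single reads and paired ends. Reads were aligned in Galaxy to hg38 with BWA, named in the submitters' processing notes, with repeat-masking, and peaks were called by MACS at p 1e-05 and removed where also found in the input. The MACS version is not given in the sources used here. The authors deposited 4 peak lists, 1 per library, whose score is minus 10 times the log10 of the MACS p-value. Reads and inputs were not analysed here.

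Genes were taken from GENCODE 44 on hg38. The expected number was the list size times the gene's share of bases other than N on chromosomes 1 to 22, X and Y. Tandem calls used 150-nt windows, shifts up to 75 nt and an identity of 0.6. Alu matches used blastn 2.17.0 at an e-value of 1e-05 with an Alu copy of the reference as query. Multi-copy peaks had more than 50% of their 51-nt words more than once in the genome. Arrays were runs of adjacent tandem tiles. Calculations used samtools 1.23.1 and Python 3.11.15 with pysam 0.24.0, numba 0.67.0, scipy 1.17.1, pandas 2.3.3, numpy 2.4.6 and matplotlib 3.10.9, and the interval, overlap and tandem code was tested on simulated data.

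No test between groups was run. The text names the members, the peak of highest score per gene and list, peaks on exons or near starts, places shared by lists, and the long genes next in rank. Alternatives covered the expected number, score, repeats and overlap distance. The members and lists were chosen with earlier results of these data known. Some sequences under peaks are not reported here.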

Additional observations from a re-analysis of the deposited data

Results flagged for a closer look

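The number of peaks in the 9 genes after Aβ1–42 relative to vehicle was below 1 for ChAT, at 0.698 (95% interval 0.423 to 1.14), and above 1 for SATB1, at 1.32 (0.696 to 2.53). The ratios of the 2 proteins lay on opposite sides of 1 in raw counts. As a share of each list both were below 1, at 0.820 and 0.648, and without PTPRN2 both were above 1, at 1.20 and 1.55. The difference was not tested, each value rests on 1 library per group, and both intervals include 1. The whole lists gave 0.851 and 2.03.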

How the results depend on the processing

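Of 167 alternative values of the main results, 145 stayed near the reported value and 22 moved further, of which several crossed 1. Near meant within counting error or 1.5 times, or for A+T content within the standard deviation over peaks. A value could stay near and still cross 1, such as 0.938 for ChAT peaks in vehicle with scores at or above the list median. Of 44 alternative values of PTPRN2, 34 stayed, 8 moved and 2 fell below 1 from a ratio whose interval lay above 1. The ratio of observed to expected ChAT peaks in vehicle over the 9 genes, 1.19, was 0.775 outside tandem repeats (0.828 and 0.753 with identities of 0.7 and 0.5, chosen after seeing the data) and 0.596 without PTPRN2. For SATB1 after Aβ1–42 it was 1.70 without Alu peaks and 1.45 without multi-copy peaks. The ratio of Aβ1–42 to vehicle peaks for ChAT was 1.39 outside tandem repeats and 1.20 without PTPRN2. For SATB1 it was 0.648 as a share of each list, 0.692 for scores at or above the list median and 0.667 without Alu peaks. ChAT and SATB1 peaks after Aβ1–42 shared 1 place within 200 nt and 2 within 1 kb. Of the ChAT peaks in vehicle, 5 lay within 1 kb of a SATB1 peak after Aβ1–42, several of them beside the same SATB1 peak. Only 1 met such a peak at an overlap of at least 50% of the shorter peak. Multi-copy peaks were 2.33% (over 90% of words) and 46.5% (any word) for ChAT in vehicle, 10.5% (over 90%) for SATB1 in vehicle and 64% (any word) for SATB1 after Aβ1–42. Alu matches of SATB1 peaks in vehicle were 0 at an e-value of 1e-10, at a match of at least 50 nt and with the 7SL query. For PTPRN2 the ratios of SATB1 fell to 0 in vehicle and 0.607 after Aβ1–42 outside tandem repeats at an identity of 0.5. The cause was not tested. Expectations from bases outside soft-masked repeats were not run, since the reference used here holds no soft-masking. No paired analysis was possible because each group has 1 library. The number of peaks per gene and the unknown depth limit every value.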

Other observations

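Among 15 other long genes commonly listed with fragile sites, 135 peaks over the 4 lists stood against 166 expected from length, a ratio of 0.813. By list, ChAT had 37 peaks in vehicle and 37 after Aβ1–42, and SATB1 18 and 43. The highest was CNTNAP2, which codes for a neuronal adhesion protein of the neurexin family, with 24 peaks and a ratio of 1.36. Of these, 13 were SATB1 peaks after Aβ1–42, 2.83 times the expected number. The lowest was NBEA, which codes for the scaffold protein neurobeachin, with 1 peak and a ratio of 0.178.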
